A study of Homo sapiens with 6 samples.

Results

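Respiratory complex I was followed at the RNA level in 786-O cells adapted to copper. The genes were taken by symbol from the table of gene counts: rows named NDUFA, NDUFB, NDUFC, NDUFS, NDUFV or NDUFAF with a number, NDUFAB1, and the assembly factors ACAD9, ECSIT, TIMMDC1, TMEM126B, FOXRED1 and NUBPL. NDUFA4 and NDUFA4L2 were left out by that rule. It gave 51 of the 25987 genes with a symbol, made up of 37 subunits and 14 assembly factors, and all 51 passed the filter on low counts. 786-O is a human line from a clear cell kidney cancer that lacks functional VHL, labelled wild type for this study. The copper group had 3 libraries of cells kept long term in medium whose serum had been loaded with copper sulfate overnight, and the control group had 3 libraries of cells given serum handled alike without copper. The dose is 30 uM in the series text, but 30, 31 and 32 uM in the entries for replicates 1, 2 and 3, which were kept as 1 group. The labels do not say whether the libraries of a group came from separate cultures, so p-values measure the spread between these libraries. All are of 1 cell line.

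Complex I (NADH:ubiquinone oxidoreductase) is the entry point of electrons from NADH into the respiratory chain. It is an L-shaped assembly: the arm in the matrix takes electrons from NADH through a flavin and a chain of iron-sulfur clusters to ubiquinone, and the arm in the inner membrane pumps protons. Its core subunits do the catalysis, and those of the matrix arm are encoded in the nucleus. The supernumerary subunits surround the core, and assembly factors build the modules and join them without staying in the finished enzyme.

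Library totals ran from 16301772 to 18189469 counts in copper and from 19219090 to 25079913 in control, and 12944 genes were tested. MT2A, a metallothionein that binds copper and is known to be induced by metals, served as a check of the exposure and was at 631, 724 and 803 CPM (the count relative to the library total, scaled by TMM) in copper replicates 1, 2 and 3 and 328, 349 and 351 in control. The groups were far apart for MT2A, with a log2 fold change of 1.07 (SE 0.11) and an adjusted p of 0.0843 by edgeR's quasi-likelihood test, or 0.00516 with replicate number as a block. Of the genes chosen to check the labelled line, PAX8, EPAS1, KRT8, KRT18, VIM and CDH2 had group means from 133 to 3130 CPM. PAX2 had 8.61 in copper and 6.72 in control. The leukocyte, endothelial and hepatocyte markers PTPRC, CD3E, CD68, PECAM1, CDH5 and ALB had means of at most 0.442 CPM in either group. Of the 2 fibroblast markers, COL1A1 averaged 3.42 CPM in copper and 6.53 in control and PDGFRB 4.37 and 5.90; their part in the results was not tested. The copper effect in replicate 3 differed from that in replicates 1 and 2 for 11.3% of all tested genes by edgeR's interaction test, so results are also given by replicate number.

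Complex I transcripts were present at very different levels for different subunits. Per kb of exon, the control mean of the 37 subunits had a median of 37.3 CPM per kb, and that of the 14 assembly factors 21.4, from 1.85 for NDUFAF5 to 42.2 for TIMMDC1. At the top stood NDUFS5, a subunit of the proximal membrane arm, at 299.6 CPM per kb, followed by NDUFB7 at 143 and NDUFA1 at 94.8. Exon length here is the union over coding transcripts, and the order depends on that choice. NDUFB2, at 37.3 CPM per kb, has 3184 bases of exon but a mean transcript length of 685.7 bases. The order by mean transcript length is not given here. At the bottom were 3 genes with fewer than 100 counts in every library: NDUFV2 at 0.534, NDUFA7 at 0.813 and NDUFA13 at 1.08 CPM per kb. The other 48 had at least 182 counts in each library. The 51 genes together took 0.295%, 0.281% and 0.335% of all counts in copper replicates 1, 2 and 3 and 0.283%, 0.265% and 0.274% in control. Copper replicate 3 was the high library, and the groups overlapped.

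**Figure D1:**
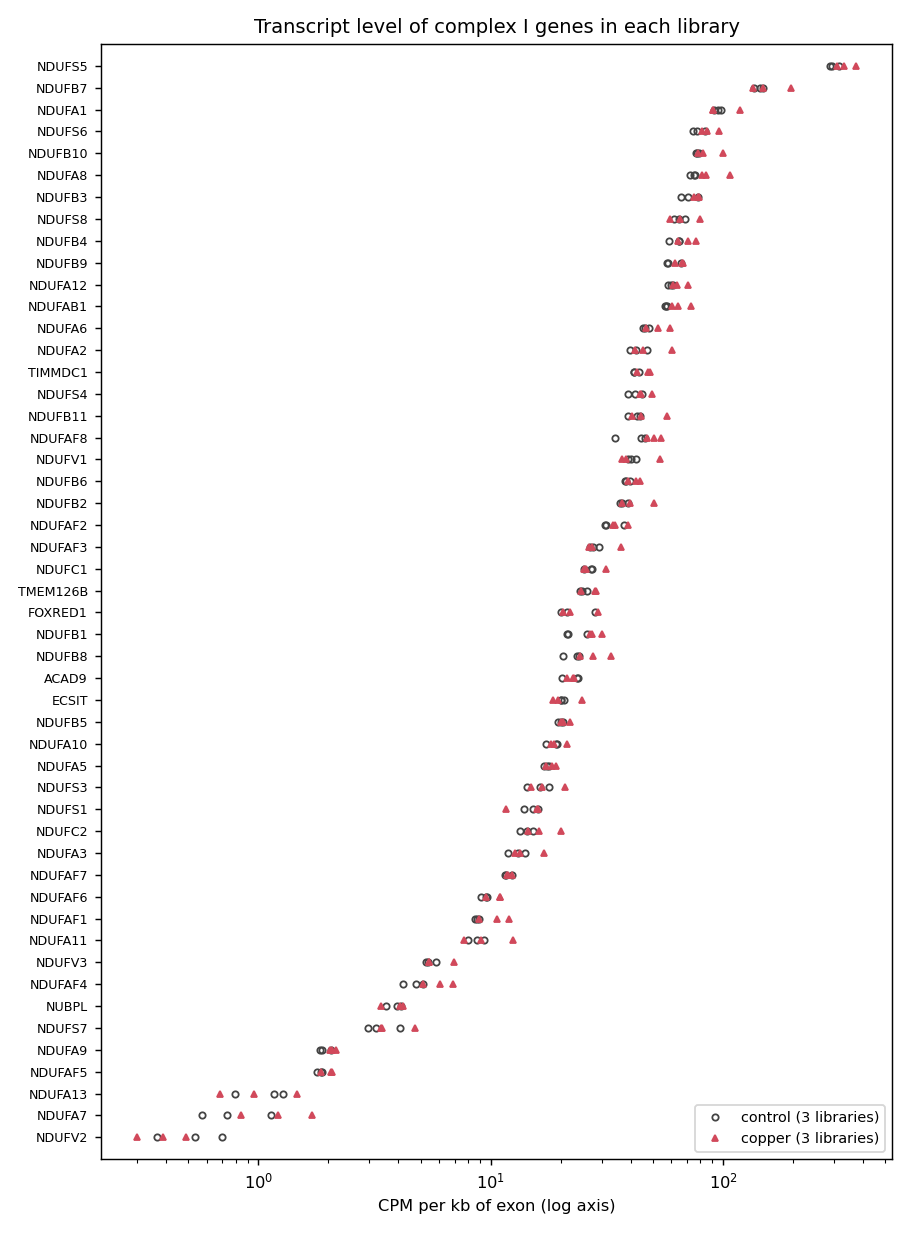
Level of 50 of the 51 genes in CPM per kb of exon on a log axis, with open circles for the 3 control and triangles for the 3 copper libraries, ordered by the control mean. NDUFS5 is at the top at 299.6 and NDUFV2 at the bottom at 0.534 in control. Within most genes the 6 libraries lie close together, often with 1 copper library to the right. NDUFV2, NDUFA7 and NDUFA13, which have few counts, spread more widely.

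Copper gave no called change in any of the 51 genes. Their fitted log2 fold changes were small and mostly positive: 47 of 51 (92.2%) were above 0, with a median of 0.12, against 51.4% and a median of 0.0052 over all 12944 genes tested. By edgeR's quasi-likelihood test 0 of 51 passed an adjusted p of 0.05, where 0% of all genes did, and the adjusted p was 0.99987 for each. At an unadjusted p under 0.05 there were 2, NDUFB1 and NDUFAF4, both with copper above control, against 3.52% of all genes. DESeq2 and limma-voom also called 0 of the 51, with 1 each at an unadjusted p under 0.05. With the replicate block 0 of 51 were called, against 0.17% of all genes, with adjusted p from 0.429 to 0.993. The block raised the number at an unadjusted p under 0.05 to 6, all higher in copper, against 8.41% of all genes: NDUFA8, NDUFB1, NDUFB8, NDUFAF1, NDUFAF4 and NDUFAF8. In bulk RNA, less RNA per cell and fewer cells of a kind cannot be told apart.

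**Figure D2:**
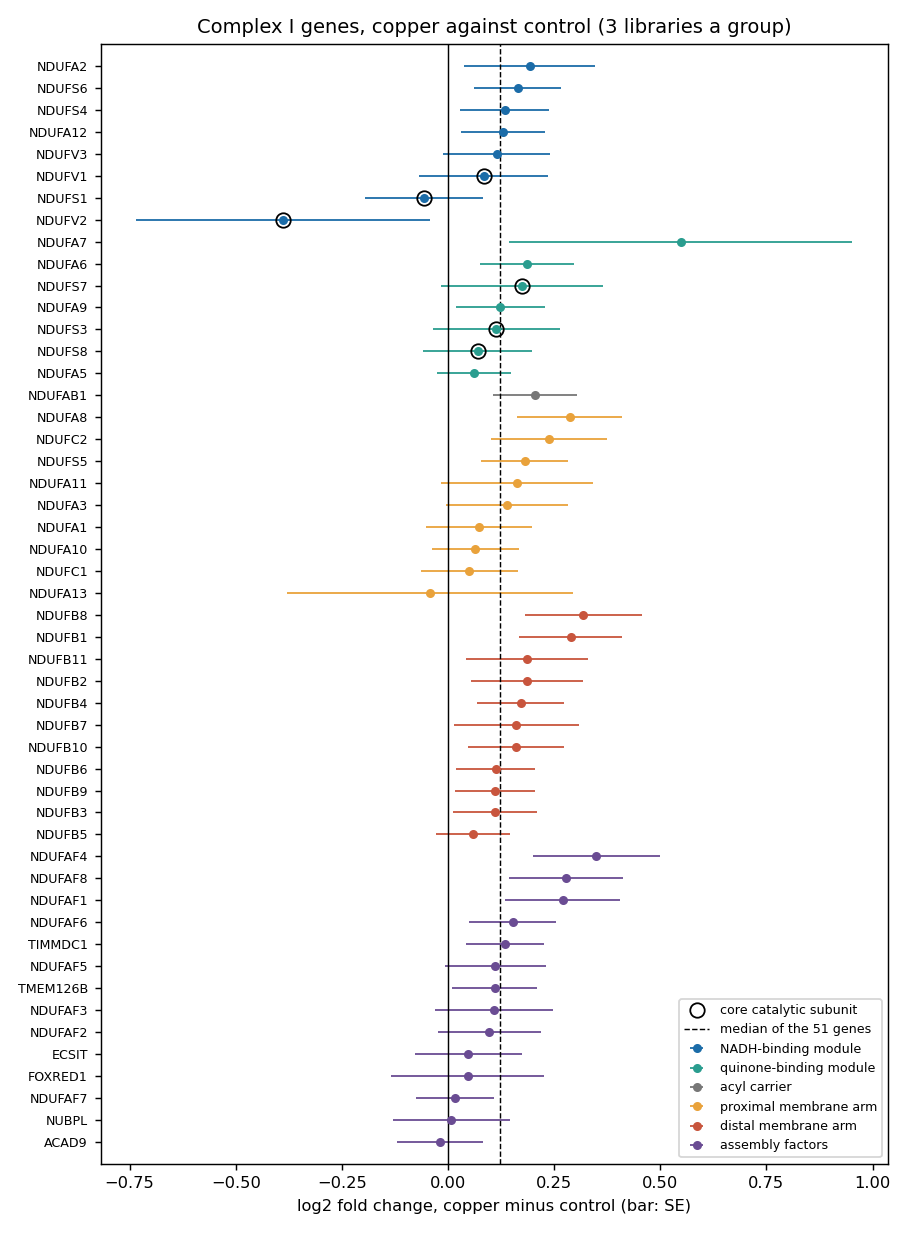
Log2 fold change of copper against control for 50 of the 51 genes (points) with SE (bars), coloured by module, core catalytic subunits ringed, and the median of the 51 genes as a dashed line at 0.12. All but 4 points lie above 0, and the lowest and highest, NDUFV2 at -0.39 and NDUFA7 at 0.55, carry the longest bars.

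The small differences were not of 1 size across the replicates. The median over the 51 genes of the log2 difference between the copper and control libraries of the same number was 0.06 in replicate 1, 0.06 in replicate 2 and 0.26 in replicate 3. In replicate 1 there were 38 genes above 0, in replicate 2 there were 37 and in replicate 3 there were 46. Over all tested genes the shares above 0 were 50.5%, 51.5% and 50.2%. Copper was the higher in all 3 pairs for 29 of the 51 genes (17.7% of all genes) and the lower in all 3 for 1, NDUFV2 (17% of all genes). Of the 23 complex I genes with at most 1500 bases of exon it was the higher in all 3 for 18, against 38.8% of all tested genes of that length. In replicates 1 and 2 alone, where NDUFA7 no longer passed the filter, the fitted median was 0.055 with 39 of 50 above 0, and without copper replicate 3 it was 0.076 with 34 of 51.

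**Figure D3:**
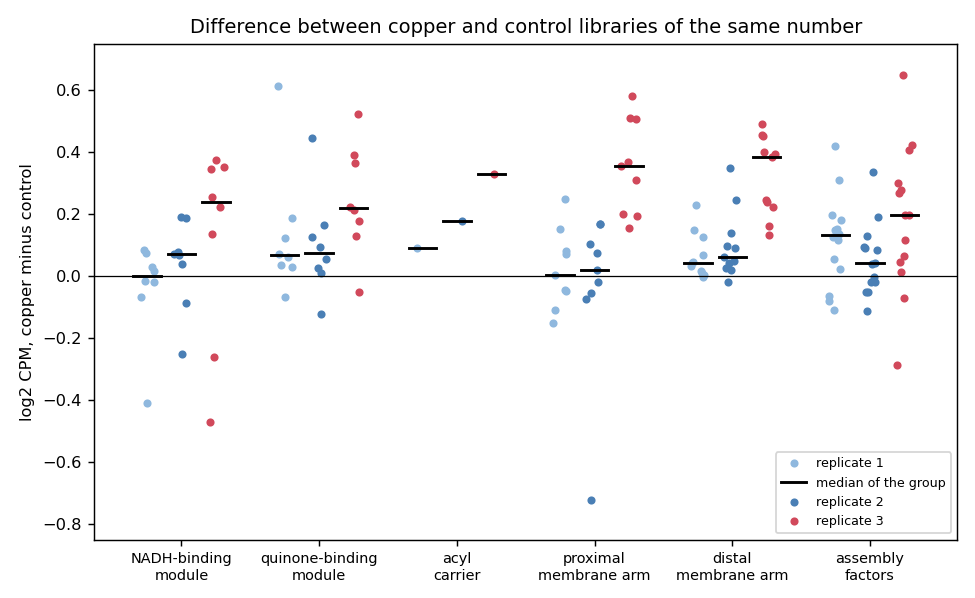
Difference in log2 CPM between the copper and control libraries of the same replicate number, one point per gene, by module, with black bars for the median of each set. The replicate 3 sets of the subunit modules have medians between 0.22 and 0.38, above those of replicates 1 and 2.

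Among the 7 nuclear core subunits the median log2 fold change was 0.07, and 5 were above 0. NDUFV1, which binds NADH and the flavin, was at 96.6, 93.2 and 135 CPM in copper replicates 1, 2 and 3 and at 101, 99.0 and 106 in control. Copper replicates 1 and 2 lay under every control library and copper replicate 3 above them, for a log2 fold change of 0.08 (SE 0.15). NDUFS1, the large iron-sulfur subunit of the same module, did not share the high copper replicate 3, with 188, 190 and 139 CPM in copper and 190, 181 and 167 in control. Its copper replicate 3 was the lowest of the 6 libraries, and the log2 fold change was -0.06 (SE 0.14).

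Core subunits of the quinone-binding module varied as little. NDUFS7, which lies at the ubiquinone pocket and holds the last iron-sulfur cluster of the chain, was at 11.1, 11.3 and 15.6 CPM in copper and 9.73, 10.5 and 13.5 in control. Replicate 3 was the highest in both groups, and the log2 fold change was 0.17 (SE 0.19). NDUFS3, a subunit on which the matrix arm is built, had 40.0, 35.6 and 49.9 CPM in copper and 39.0, 34.3 and 42.7 in control, again with replicate 3 high in both and a log2 fold change of 0.11 (SE 0.15). NDUFS8, which carries iron-sulfur clusters next to the membrane, was at 51.7, 46.9 and 63.0 CPM in copper and 54.1, 51.03 and 48.8 in control. It was the lower in copper in replicates 1 and 2, by -0.07 and -0.12, and the higher in replicate 3, by 0.37. Its fitted log2 fold change of 0.07 (SE 0.13) became -0.10 in replicates 1 and 2 alone and -0.06 without copper replicate 3. That of NDUFV1 became -0.08 and -0.11, and that of NDUFS1 became 0.03 and 0.08.

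The 3 genes with few counts had the largest SE of the 51, and NDUFV2 and NDUFA7 had the lowest and the highest fold change. NDUFV2, the core iron-sulfur partner of NDUFV1 (chromosome 18, 9102630 to 9134345, GRCh38, GENCODE 29), had 12, 10 and 17 counts in copper and 25, 14 and 25 in control. The groups overlapped at 0.732, 0.561 and 0.917 CPM against 1.01, 0.686 and 1.31, for a log2 fold change of -0.39 (SE 0.35). NDUFA7, a small subunit of the quinone-binding module (chromosome 19, 8311284 to 8321396), had 12, 9 and 19 counts in copper and 11, 7 and 13 in control, a log2 fold change of 0.55 (SE 0.40). NDUFA13, also known as GRIM19, a subunit at the foot of the membrane arm (chromosome 19, 19515755 to 19529054), had 27, 21 and 47 counts in copper and 34, 41 and 42 in control, a log2 fold change of -0.04 (SE 0.34). These counts contrast with 1584 to 2517 for NDUFV1, which sits in the same enzyme beside NDUFV2. In GENCODE 29, 78.7% of the exon bases of NDUFA7, 41.1% of those of NDUFV2 and 32.9% of those of NDUFA13 are shared with another gene, mostly with a gene on the same strand. Such sharing was not limited to them: 12 of the 51 genes shared at least 20%, among them NDUFB8 with 65.4% and a control mean of 22.9 CPM. How the authors' counting treated reads in shared exons is not given in the sources used here, and the part of this in the low counts was not tested.

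The 30 supernumerary subunits had a median log2 fold change of 0.16, and 29 were above 0, all but NDUFA13. By place in the enzyme, the subunits of the distal membrane arm, NDUFB1 to NDUFB11, had a median of 0.16 with 11 of 11 above 0. The 9 supernumerary subunits of the proximal arm had 0.14 with 8 of 9 above 0. Core and supernumerary subunits together, the NADH-binding module had 0.12 with 6 of 8 and the quinone-binding module 0.12 with 8 of 8. NDUFAB1, the mitochondrial acyl carrier protein that also sits in the enzyme, had 67.7, 71.8 and 81.3 CPM in copper and 63.5, 63.4 and 64.7 in control. Every copper library lay above every control library, with a log2 fold change of 0.20 (SE 0.10).

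NDUFB8, NDUFB1 and NDUFA8 had the smallest p among the supernumerary subunits, and in each the 2 groups did not overlap. NDUFB8, a distal-arm subunit (chromosome 10, 100523740 to 100530000), was at 28.0, 24.5 and 33.1 CPM in copper and 23.8, 20.6 and 24.2 in control. The lowest copper library was close to the highest control library, and the log2 fold change was 0.32 (SE 0.14); under the block edgeR's adjusted p was 0.430. NDUFB1, also of the distal arm (chromosome 14, 92116122 to 92121917), was at 22.98, 23.4 and 25.7 CPM in copper and 22.3, 18.3 and 18.2 in control. Control replicate 1 was near the copper libraries, and the log2 fold change was 0.29 (SE 0.12); its adjusted p under the block was 0.551. NDUFA8, a subunit on the intermembrane-space face of the proximal arm (chromosome 9, 122144058 to 122159819), was at 71.0, 68.4 and 90.1 CPM in copper and 63.9, 60.9 and 63.4 in control. Copper replicate 3 stood well above the rest, and the log2 fold change was 0.29 (SE 0.12); its adjusted p under the block was 0.536.

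The 14 assembly factors had a median log2 fold change of 0.11, with 13 above 0. NDUFAF4, which works with NDUFAF3 on the early quinone-binding module (chromosome 6, 96889313 to 96897881), was at 16.5, 14.5 and 12.3 CPM in copper and 12.3, 11.5 and 10.1 in control. It was the higher in copper by 0.42, 0.34 and 0.28 in replicates 1, 2 and 3, so that replicate 3 gave the smallest difference, where it gave the largest in 39 of the 51 genes. The lowest copper and the highest control library were level, so the groups overlapped. Its log2 fold change was 0.35 (SE 0.15); its adjusted p under the block was 0.429. In the blocked fit without replicate 3, NDUFAF4 was called at 0.38 with an adjusted p of 0.0248 by edgeR's quasi-likelihood test. It was the 1 gene called of the 50 of the set tested there, in a fit that called 912 of 12966 genes. That fit has only 2 libraries a group, blocked on numbers 1 and 2, which are less clearly told apart than 3. Over all alternatives run, the adjusted p of NDUFAF4 stayed above 0.05 in every other.

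NDUFAF8, a small partner that stabilises the hydroxylase NDUFAF5, was at 30.9, 29.1 and 33.3 CPM in copper and 28.3, 27.4 and 21.2 in control. The groups did not overlap, but the gap came largely from a low control replicate 3, and the log2 fold change was 0.28 (SE 0.13). NDUFAF1, a member of the complex that assembles the proximal membrane arm with ACAD9, ECSIT, TMEM126B and TIMMDC1, was at 15.6, 13.1 and 17.5 CPM in copper and 12.5, 12.7 and 12.99 in control. Copper replicate 2 nearly touched the control libraries, and the log2 fold change was 0.27 (SE 0.14). ACAD9, the flavoprotein of that complex, differed little, with 55.5, 56.3 and 52.3 CPM in copper, 57.9, 58.3 and 49.99 in control and a log2 fold change of -0.02 (SE 0.10). NUBPL, which delivers iron-sulfur clusters to the enzyme, was at 12.4, 12.8 and 10.3 CPM in copper and 10.8, 12.01 and 12.6 in control. The libraries of the groups interleaved, and the log2 fold change was 0.0078 (SE 0.14). FOXRED1 (chosen after its values were seen) was the 1 gene of the set that differed between replicate numbers by edgeR's F test in the blocked model, with an adjusted p of 0.0499, against 6.46% of all genes. It was at 60.9 and 58.9 CPM in copper and control replicate 3 and at 41.9 to 46.1 in the other 4 libraries.

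In all, the groups did not overlap for 6 of the 51 genes (11.8%), each higher in copper: NDUFAB1, NDUFA8, NDUFB1, NDUFB8, NDUFAF1 and NDUFAF8. Over all tested genes 5.45% were higher without overlap and 5.35% lower, the latter against 0 of the 51. These 6 genes were all among the 23 with at most 1500 bases of exon. Of the 949 tested genes of that length, 11.9% were higher in copper without overlap and 83.9% had a log2 fold change above 0. Of the 23 complex I genes of that length, 6 were higher without overlap and 23 had a log2 fold change above 0. The 11.8% is a share of all 51 genes, of which 28 are longer.

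Transcript length moved with the difference in replicate 3. The 51 genes had a median exon length of 1726 bases, against 3801 for the tested genes with a length. In replicate 3, the 949 tested genes of at most 1500 bases had a median difference of 0.28, with 835 above 0. The 5606 of over 4000 bases had one of -0.18. In replicates 1 and 2 the short genes had medians of 0.04 and 0.02. The complex I genes of at most 1500 bases had a median of 0.37 in replicate 3, with 23 of 23 above 0, and the 28 longer ones one of 0.21 with 23 of 28. Across the 51 genes, the replicate 3 difference and log2 exon length had a Pearson r of -0.42, and across 11984 tested genes r was -0.45. In replicates 1 and 2 the values were -0.13 and -0.16 for the complex I genes and -0.04 and 0.02 for all. These are descriptions over genes of the same 2 libraries, which are not independent. With each library's trend in exon length and GC content removed, the replicate 3 median of the complex I genes was 0.10, with 37 of 51 above 0, and those of replicates 1 and 2 were 0.02 and 0.05. The blocked fit with that trend removed gave a median of 0.056, with 39 of 51 above 0 and 0 called.

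**Figure D4:**
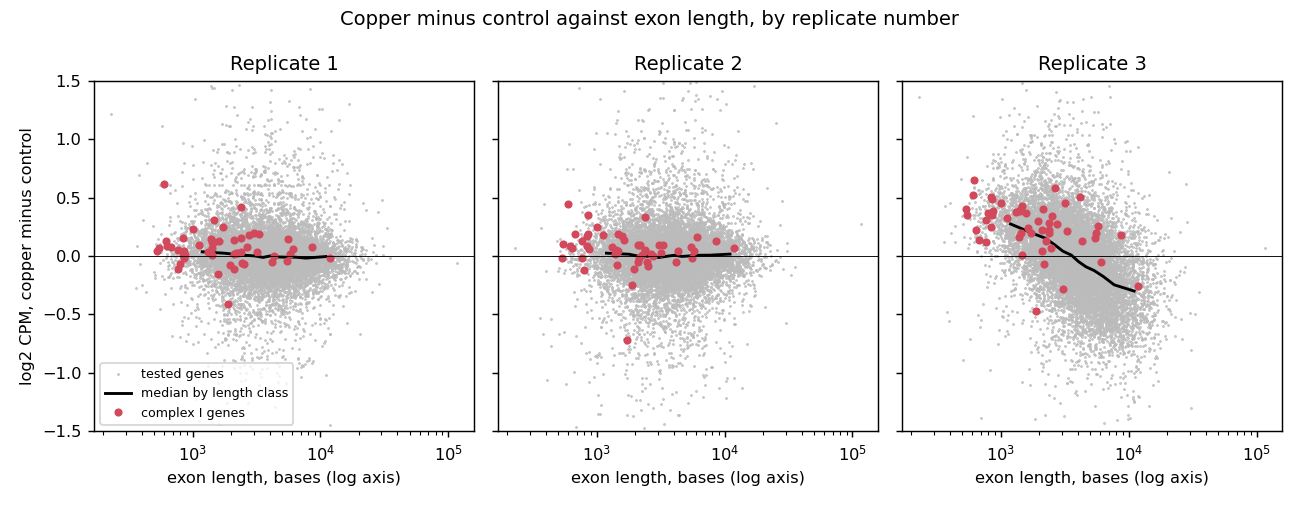
Difference in log2 CPM between the copper and control libraries of replicates 1, 2 and 3 against exon length (log axis), with tested genes in grey, their median by length class as a line and the 51 complex I genes in red; the vertical axis ends at 1.5 either way. The line is flat in replicates 1 and 2 and falls with length in replicate 3. There the complex I genes of at most 1500 bases have a median of 0.37 and all tested genes of that length one of 0.28.

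Copper replicate 3 was the highest of the 6 libraries for 37 of the 51 genes (72.5%), in 31 of 37 subunits and 6 of 14 assembly factors. That library was the highest for 33.2% of all tested genes and for 69.1% of those of at most 1500 bases, though 28 of the 51 genes are longer. Whether the copper effect in replicate 3 differed from that in replicates 1 and 2 was tested with an interaction term, the spread coming from replicates 1 and 2 since replicate 3 has 1 library a group. By edgeR's quasi-likelihood test it differed for 7 of the 51 genes (13.7%), against 11.3% of all genes. Among genes of at most 1500 bases it differed for 3 of the 23 of complex I, against 10.4% of all tested ones. The 7 were NDUFV1, NDUFS8, NDUFA1, NDUFC2, NDUFB2, NDUFAF3 and NDUFAF8, each with the larger effect in replicate 3. At an unadjusted p under 0.05 there were 17 (28.6% of all genes), 16 of them with the larger effect in replicate 3, against 11.4% of all genes. Among genes of at most 1500 bases, 10 of the 23 of complex I had that larger effect, against 30.7% of all tested ones. NDUFC2, a proximal-arm subunit (chosen after its values were seen), had an interaction of 0.53 on the log2 scale with an adjusted p of 0.0323. It was at 42.7, 38.5 and 53.0 CPM in copper and 40.3, 38.0 and 35.4 in control, the gap lying in replicate 3. The test compares a pair of libraries with the rest and was chosen with earlier results of these data known.

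Sequence shared by the start sites was looked at because the genes differ in function but belong to 1 enzyme. RefSeq windows on GRCh38.p14, from 250 bases before to 50 after each start, were matched by symbol for 44 of the 51 genes. Motifs of 4 factors or elements were searched on both strands. The motif of NRF1 (GCGC, any base, then TGCGC), a regulator of many respiratory chain genes, was in 8 of 44 windows (18.2%), against 6.29% of all 27305 windows and 11.9% of those of tested genes. AAGATGGC, the motif of YY1, was in 6 (13.6%), against 3.03% and 5.42%. CCGGAAG, for the ETS factor GABPA, was in 7 (15.9%), against 10.7% and 19.7%. TGACNNNGC, the antioxidant response element read by NRF2, was in 8 (18.2%), against 13.6% and 15.4%. All 6 YY1 matches began between bases 11 and 26 after the start. The 8 genes with an NRF1 match had a median log2 fold change of 0.13, with 0.08, 0.10 and 0.23 in replicates 1, 2 and 3. The 36 without it had 0.11, with 0.04, 0.07 and 0.29. Median exon length was 2037.5 bases in the 8 and 1445 in the 36, and the part of length in these values was not tested.

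The windows of NDUFA8 (chr9:122159730-122160029, minus strand) and ACAD9 (chr3:128879370-128879669, plus strand) are shown because both hold NRF1 matches, in capitals, while their fold changes were 0.29 and -0.02. The 2 matches of NDUFA8 begin 4 bases before and 3 bases after the start and overlap each other, and those of ACAD9 begin 196 and 46 bases before it. The window of NDUFAF4 (chr6:96897842-96898141, minus strand), the assembly factor with the highest fold change, has 0 NRF1 matches and 1 GABPA match, in capitals, 147 bases before the start. A match is a description of these letters and not a binding site.
NDUFA8: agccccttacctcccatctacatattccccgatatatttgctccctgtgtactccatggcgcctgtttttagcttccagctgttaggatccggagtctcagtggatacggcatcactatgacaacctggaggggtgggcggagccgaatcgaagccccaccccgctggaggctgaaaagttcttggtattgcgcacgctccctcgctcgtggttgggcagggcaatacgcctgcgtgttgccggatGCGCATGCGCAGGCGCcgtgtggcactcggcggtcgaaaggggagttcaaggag
ACAD9: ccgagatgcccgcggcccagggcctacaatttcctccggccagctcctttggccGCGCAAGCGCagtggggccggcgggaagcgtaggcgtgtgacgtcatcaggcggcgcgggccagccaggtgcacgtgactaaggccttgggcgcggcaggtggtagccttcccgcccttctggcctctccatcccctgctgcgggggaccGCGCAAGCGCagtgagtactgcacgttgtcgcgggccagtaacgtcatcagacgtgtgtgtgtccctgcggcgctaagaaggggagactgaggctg
NDUFAF4: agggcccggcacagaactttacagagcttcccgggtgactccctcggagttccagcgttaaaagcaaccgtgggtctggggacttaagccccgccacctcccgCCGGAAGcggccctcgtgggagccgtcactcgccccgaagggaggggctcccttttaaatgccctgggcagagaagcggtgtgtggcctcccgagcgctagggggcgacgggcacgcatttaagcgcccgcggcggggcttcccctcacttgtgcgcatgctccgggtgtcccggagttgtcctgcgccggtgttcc

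Of the other genes that build complex I or work beside it, 0 were called, with or without the block. Of 13 further biogenesis partners, such as AIFM1 and the membrane insertase OXA1L, 12 had a log2 fold change above 0, with a median of 0.13. PYURF, a chaperone of the early complex, was at 60.0 ± 0.579 CPM in copper and 52.2 ± 0.599 in control (SD, n = 3), with a log2 fold change of 0.20 (SE 0.08) and differences of 0.18, 0.19 and 0.23 in replicates 1, 2 and 3 (chosen after its values were seen). The edgeR adjusted p of PYURF was 0.99987, or 0.579 with the block. Of 14 tested iron-sulfur cluster assembly genes 11 were above 0 (median 0.11), and of 11 ubiquinone synthesis genes 10 (median 0.12). Of 8 tested enzymes that also reduce ubiquinone, complex II included, 7 were above 0 with a median of 0.04. Among these SQOR, which oxidises sulfide (chosen after its values were seen), was at 23.5 ± 8.35 CPM in copper and 15.1 ± 0.825 in control. Its log2 fold change was 0.64 (SE 0.24), with differences of 0.18, 0.54 and 1.03 in replicates 1, 2 and 3, so replicate 3 had the largest. Under the block edgeR's adjusted p of SQOR was 0.336.

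The rest of the chain gave values side by side with those of complex I. Nuclear complex III had a median of 0.13 with 8 of 9 above 0, nuclear complex IV 0.11 with 11 of 11 and ATP synthase 0.12 with 15 of 17. In replicate 3 these 3 lists had medians of 0.28, 0.32 and 0.32, and in replicate 1 medians of 0.04, -0.03 and 0.04. The biogenesis partners and ubiquinone synthesis genes had 0.12 and 0.08 in replicate 3. All lists share the same 6 libraries, and no difference between lists was tested. NDUFA4, once counted to complex I and now placed in complex IV, was at 148 ± 19.0 CPM in copper and 128 ± 10.1 in control (SD, n = 3), a log2 fold change of 0.21. Its paralog NDUFA4L2, a target of hypoxia-inducible factor, was at 1.03 ± 0.274 and 1.09 ± 0.240 CPM.

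**Figure D5:**
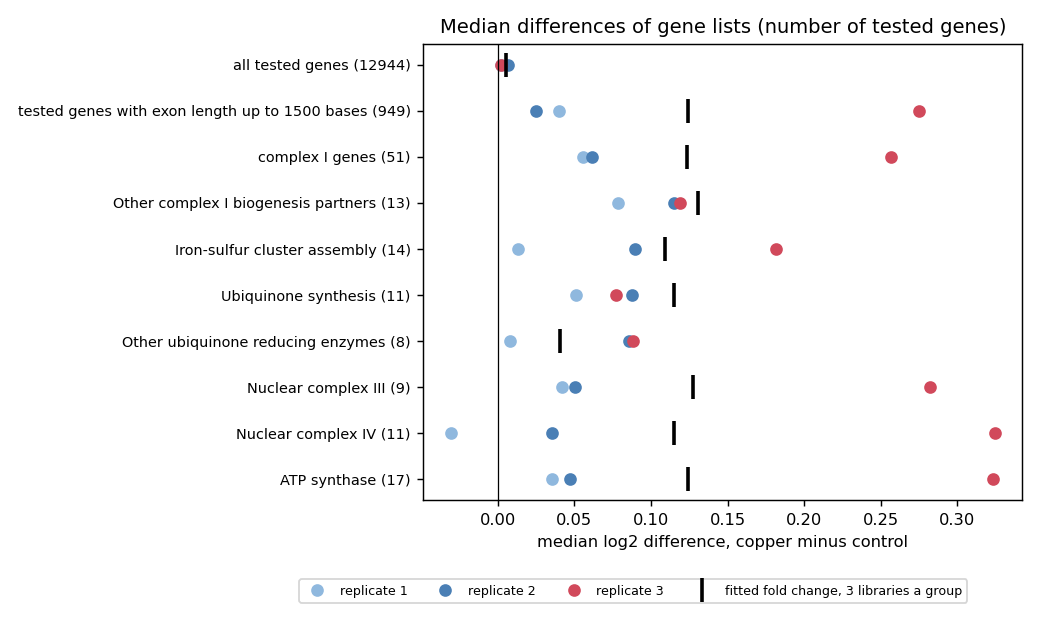
Median log2 difference between copper and control for lists of genes, as points for each replicate number and a black tick for the fitted fold change, with the number of tested genes in parentheses. The 51 complex I genes (0.06, 0.06 and 0.26 in replicates 1, 2 and 3) lie beside the 949 tested genes of at most 1500 bases of exon (0.04, 0.02 and 0.28). Of the 51, 28 have more than 1500 bases.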

How the data were processed

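Total RNA was turned into strand-marking NEBNext libraries, according to the protocols in the labels. A single table deposited by the authors holds raw counts per gene for all 6. The submitters' processing notes name STAR, FastQC, edgeR and GRCh38, without roles; counting program, strand use and handling of multi-mapping reads are not given in the sources used here. Genes without a symbol (5, 0.000814% of counts) were left out.

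The tests used edgeR 4.0.16 under R 4.3.3: filterByExpr (minimum count 10, minimum total 15), TMM scaling, the robust quasi-likelihood test of copper against control over all genes, a prior count of 2 for log2 fold changes, and Benjamini-Hochberg adjustment with calls under 0.05. SE values come from the fitted coefficient and its F statistic. Pair differences are log2 CPM with the same prior. Exon length is the union of GENCODE 29 basic coding exons, matched by Entrez number (92.6% of tested genes). Lists are described by counts and medians, with no list test. Alternatives were other scalings and filters, DESeq2 1.42.0, limma-voom (limma 3.58.1), each library left out, replicates 1 and 2 alone, and the replicate block; removal of length and GC trends (splines of 4 degrees of freedom) was added after seeing the data. Scripts were tested on simulated counts of 12944 genes, 200 of them changed 2-fold. The test recovered 146 of the 200, all in the right direction, and also called 18 unchanged genes. The share of unchanged genes among those calls was above the 0.05 used for calls. Smaller changes, such as those of the complex I genes, were not simulated. Simulated libraries had no effect of replicate number, and only the fit without the block was run on them. The blocked and interaction tests were therefore not checked in this way.

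Both groups carry replicate numbers 1 to 3 in their titles, not said to mark a shared day. Deviations from the group means of same-numbered libraries correlated at 0.46, 0.40 and 0.65 over 12944 genes, each above the 0.1 set for pairing. Copper 1 with control 2 (0.32) and copper 2 with control 1 (0.27) also passed it, so numbers 1 and 2 are less clearly told apart than 3. Pairs with 1 replicate 3 library ranged from -0.56 to -0.45. Deviations cancel out within a group, so a shift shared by the replicate 3 libraries raises the correlations among numbers 1 and 2 in any order. Passing 0.1 therefore does not show that numbers 1 and 2 mark pairs. By the 0.1 rule, the blocked value is given where it changes a result. The genes named are the core subunits (the values of 1 are not reported here), the 5 highest and 5 lowest fold changes, the 3 smallest p among supernumerary subunits and among assembly factors, and those said to be chosen later, NDUFAB1 included. Members and lists were chosen with earlier results of these data known. Positions are those of GENCODE 29.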

Additional observations from a re-analysis of the deposited data

How the results depend on the processing

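The number of complex I genes called was 0 in all alternatives but the blocked fit without replicate 3. There it was 1 of 50 (NDUFAF4), against 912 of 12966 genes. Their median log2 fold change was 0.123 in the main fit and ranged from 0.051 to 0.176 over all alternatives. Over those that left out 1 library it ran from 0.076 to 0.176, and 34 to 48 genes were above 0. The spread of the median between libraries of a group (SD 0.111) was nearly as large as the main value. Relative to each gene's mean over all libraries, the medians were 0.01, -0.04 and 0.25 in copper replicates 1, 2 and 3. In control they were -0.03, -0.10 and -0.07. That spread lies mostly in copper replicate 3, so it cannot show that the median is stable. The scalings gave medians of 0.121 (RLE), 0.147 (upper quartile) and 0.151 (total counts), where the median of all genes was 0.0030, 0.028 and 0.033. The count over all genes was 0 without the block and 22 with the replicate block. It was 27 with DESeq2, 12 without a filter, 111 in replicates 1 and 2 alone, and 198 and 211 with the block and the trend in GC and in exon or mean transcript length removed. It ranged from 0 to 15 with 1 library left out, the 15 without copper replicate 3, and was 74, 77 and 912 in the blocked fits without replicates 1, 2 and 3. With all libraries, the block changed no call among the 51 genes.

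Of 16 named genes under 20 alternatives, 281 results kept direction and call, 1 was stronger and 36, from 8 genes, changed sign, none of them called. In replicates 1 and 2 alone these were NDUFV1 (-0.0782), NDUFS1 (0.0257) and NDUFS8 (-0.0951), and in the same libraries with the replicate block -0.0778, 0.0262 and -0.0936. In the blocked fit without replicate 1, ACAD9 was at 0.00337 and NUBPL at -0.0957, and without replicate 2, ACAD9 was at 0.00136, NUBPL at -0.0402 and NDUFA13 at 0.220. With the block and exon length and GC removed they were NDUFS1 (0.0259), NDUFS8 (-0.0615) and NUBPL (-0.00120), and with mean transcript length NDUFV1 (-0.0115), NDUFS3 (-0.0100), NDUFS8 (-0.0760) and NUBPL (-0.0306). ACAD9 was at 0.00349 with upper-quartile scaling and 0.00847 with total counts, and NUBPL at -0.0108 without a filter. With 1 library left out, NDUFV1 ranged from -0.107 to 0.176, NDUFS1 from -0.136 to 0.0757, NDUFS3 from -0.0325 to 0.213, NDUFS7 from -0.00356 to 0.320, NDUFS8 from -0.0599 to 0.156, NDUFA13 from -0.366 to 0.172, ACAD9 from -0.0879 to 0.0187 and NUBPL from -0.0567 to 0.1004. The cause was not tested. Counts of 7 to 47 limit NDUFV2, NDUFA7 and NDUFA13.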

Other observations

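The deposited table places 48 of the 51 complex I genes where GENCODE 29 has them on GRCh38. For NDUFS1, NDUFA3 and NDUFA6 the spans do not overlap: the table starts them at base 223835 of chromosome 2, base 77276 of chromosome 19 and base 477 of chromosome 22, where GENCODE 29 has 206114817, 54102837 and 42085525. NDUFA3 and NDUFA6 had counts within the range of the other subunits, and NDUFS1 had the highest count of the 51 genes in a library, 4729.

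RefSeq names 69 pseudogenes after 21 of the 51 genes, and 0 of those names are rows of the count table. NDUFV2 has 1 such pseudogene and NDUFA7 and NDUFA13 have 0.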
